A study of Mus musculus with 4 samples.

Results

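The genes described here encode the enzymes and small proteins that remove reactive oxygen species, together with the regulators of that defence, in BCR-ABL-expressing leukemia stem cells with and without Hif1a. The list held 36 genes, chosen by function, and 34 of them were measured among the 19938 genes of the table. The annotation used here names no probe set for Prdx5 or Prdx6, which were not analysed here. Cells came from a transplantation model of chronic myeloid leukemia, in which donor marrow of mice given 5-fluorouracil was infected with a retrovirus carrying BCR-ABL and green fluorescent protein and then given to B6 recipients. In both groups the strain was C57BL/6 (B6), the age was 8 weeks, and the GFP+Lin-c-Kit+Sca-1+ leukemia stem cells were taken by sorting from the recipients' marrow 14 days after transplantation. There were 2 Hif1a-/- arrays, from donor marrow without Hif1a, and 2 WT arrays, from B6 donor marrow. All 4 carried BCR-ABL, and the labels name neither the deleted exons, a Cre driver nor whether animals were pooled. The labels call the samples biological replicates without naming separate animals, so p-values cover the spread of these samples only, which may be technical.

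Cells meet oxidants with several linked systems. Superoxide dismutases turn superoxide into hydrogen peroxide, which catalase, glutathione peroxidases and peroxiredoxins then reduce. Glutathione peroxidases draw on glutathione and peroxiredoxins on thioredoxin, and both are recharged with NADPH by their reductases. The transcription factor NRF2, encoded by Nfe2l2, is held down by KEAP1 and induces many of these genes through the antioxidant response element when cells meet electrophiles. In blood-forming stem cells a low oxidant level is linked to quiescence, and HIF-1 is known for favouring glycolysis over respiration.

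Hif1a itself read 11.25 and 11.39 on the Hif1a-/- arrays, against 11.34 and 11.50 on the WT arrays, on the RMA log2 scale used throughout. Its difference, Hif1a-/- minus WT, was -0.095 with a 95% interval of -0.42 to 0.23, so this probe set gives no check of the genotype labels, and the deleted exons are not named. The WT arrays stood apart from each other. Ly6g, a surface marker of granulocytes, read 11.74 and 11.64 on the Hif1a-/- arrays and 13.10 and 10.64 on the WT arrays, and Cd34, a progenitor marker, read 10.70 and 11.70 on the Hif1a-/- arrays and 10.31 and 12.29 on the WT arrays. The log2 of the summed linear values of 11 granulocyte and monocyte markers was 16.43 and 16.30 on the Hif1a-/- arrays, against 16.60 and 16.08 on the WT arrays. Sca-1 (Ly6a) was not measured here, and Kit read 10.95 and 10.61 on the Hif1a-/- arrays, against 10.32 and 11.07 on the WT arrays. The same sum was 15.55 and 15.71 on the Hif1a-/- arrays, against 15.94 and 15.68 on the WT arrays, for 10 mast cell and basophil markers. For 9 lymphoid markers it was 12.13 and 11.78 on the Hif1a-/- arrays, against 12.86 and 11.92 on the WT arrays. For 11 macrophage and stromal markers it was 12.89 and 13.11 on the Hif1a-/- arrays, against 13.46 and 13.05 on the WT arrays. Taken singly, all 10 mast cell and basophil markers had a lower mean in Hif1a-/- cells, as did 7698 of the 19938 genes. Without overlap of the groups, 3 of these 10 lay below (30%, against 9.05% of all genes). Their median difference was -0.23 and the largest was -1.30, for Mcpt4, and 0 passed an adjusted limma p of 0.05. In bulk samples, fewer cells of a type and less RNA per cell cannot be told apart.

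No antioxidant gene passed the test between genotypes. With limma and Benjamini-Hochberg adjustment over all genes, 0 of 34 members had an adjusted p under 0.05, where 0% of all genes did, and 0 had an unadjusted p under 0.05, where 1.68% of all genes did. The smallest unadjusted limma p of a member was 0.102, for Prdx2, and the largest difference in either direction was a 1.30-fold lower mean, for Hmox1. The Hif1a-/- arrays both exceeded both WT arrays for 3 members (Glrx2, Gpx3 and Prdx2), 8.82% of the members against 15.7% of all genes. They lay below for 1 member, Hmox1, 2.94% against 9.05%. Of genes at or above the 25th percentile of mean level, which include 33 of the members, 12.3% lay above and 9.91% below. The mean was higher in Hif1a-/- cells for 21 members and lower for 13, and 61.4% of all genes had a higher mean.

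**Figure D1:**
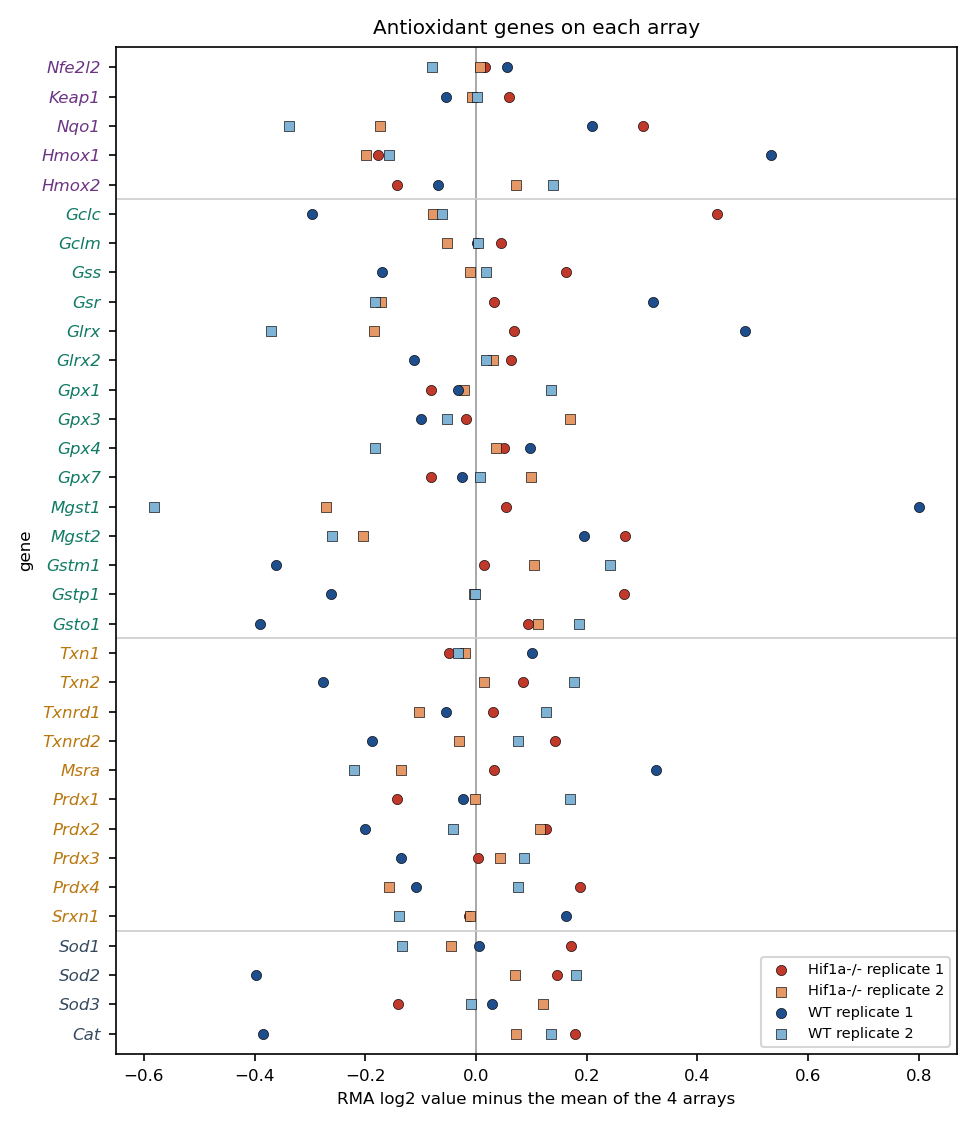
RMA log2 value of each of the 34 genes on each array, after subtraction of the gene's mean over the 4 arrays, with Hif1a-/- arrays in red and orange and WT arrays in blue. WT replicate 1 (dark blue) lies far to one side for Hmox1, Sod2, Cat and Gsto1, while their other arrays lie closer together.

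The absence of calls can be read against the width of the intervals. The 95% interval of a member's difference had a median half-width of 0.35 on the log2 scale. For 33 of the 34 members it lay within a 2-fold change either way, and for 22 it lay within a 1.5-fold change either way. Mgst1 alone reached past 2-fold, with an interval of -1.21 to 0.78. The 12 members whose intervals passed 1.5-fold, and so could hold a change of that size at this number of arrays, were Nqo1, Hmox1, Gclc, Gsr, Glrx, Mgst1, Mgst2, Gstm1, Gstp1, Gsto1, Sod2 and Cat. The median difference over the members was 0.051, beside 0.034 over all genes.

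**Figure D2:**
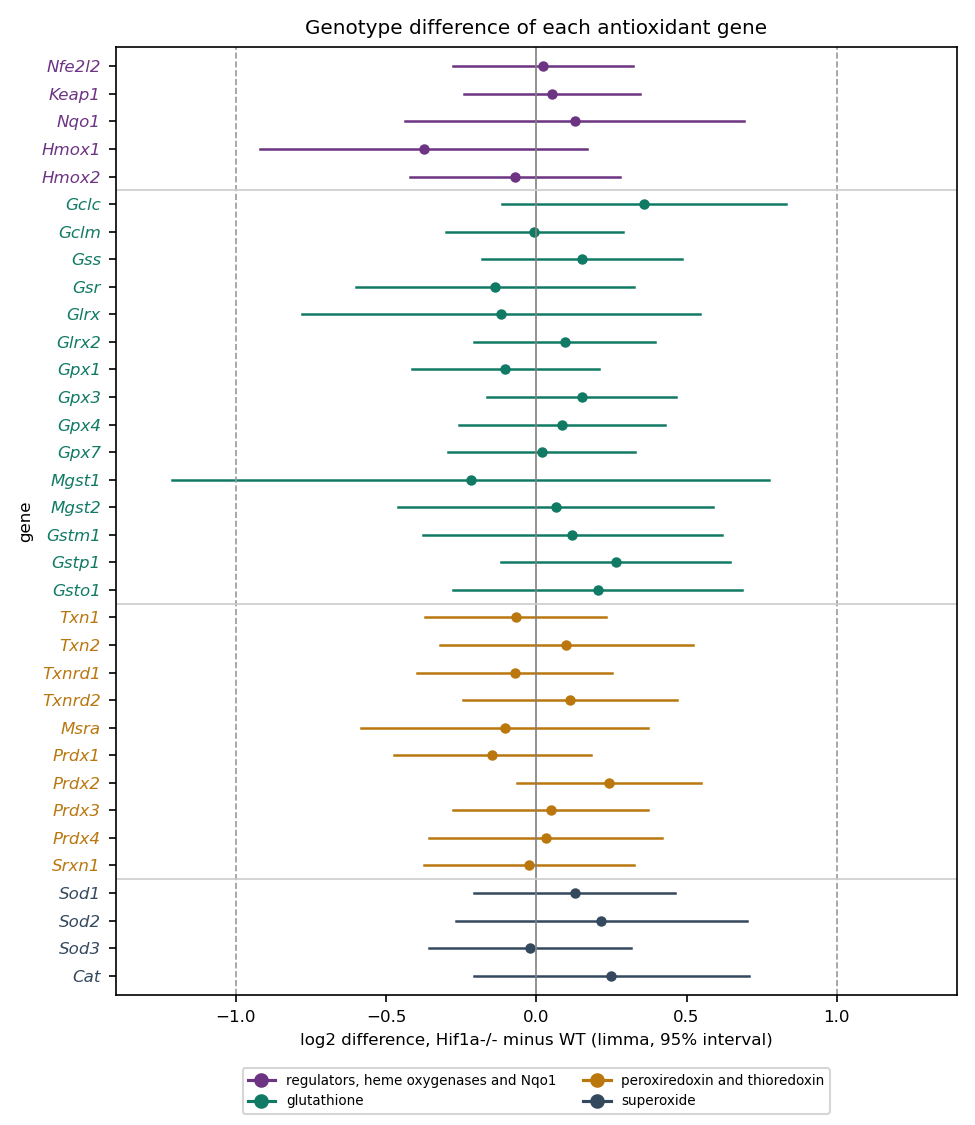
Difference in log2 expression, Hif1a-/- minus WT, of each gene (points) with its 95% interval from limma (lines), 2 arrays per genotype. Every interval crosses 0, and that of Mgst1 alone crosses a dashed line, which marks a 2-fold change.

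The regulators differed little between genotypes. Nfe2l2, the gene of NRF2, read 11.92 and 11.91 on the Hif1a-/- arrays, against 11.96 and 11.82 on the WT arrays. Keap1, whose product targets NRF2 for degradation, read 9.75 and 9.68 on the Hif1a-/- arrays, against 9.64 and 9.69 on the WT arrays. Groups overlapped for both. The differences were 0.023 for Nfe2l2 (interval -0.28 to 0.32) and 0.053 for Keap1 (interval -0.24 to 0.35), and that of Nfe2l2 was -0.044 without WT replicate 2.

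Of the heme oxygenases and the quinone reductase Nqo1, Hmox1 had the largest difference and Nqo1 the largest spread within Hif1a-/- cells. Hmox1, the inducible heme oxygenase that breaks heme down to biliverdin, iron and carbon monoxide, read 10.02 and 10.00 on the Hif1a-/- arrays, against 10.73 and 10.04 on the WT arrays. WT replicate 1 was high, and WT replicate 2 lay just above the Hif1a-/- arrays. The difference was -0.38 ± 0.23 (SE), with an unadjusted limma p of 0.145. It was -0.030 without WT replicate 1 and -0.72 without WT replicate 2, so 1 array decided its size. Hmox2, the constitutive heme oxygenase, read 11.06 and 11.28 on the Hif1a-/- arrays, against 11.13 and 11.34 on the WT arrays, with groups that overlapped and a difference of -0.070. Nqo1, a quinone reductase that uses NADPH or NADH, read 9.33 and 8.86 on the Hif1a-/- arrays, against 9.24 and 8.69 on the WT arrays. In each genotype replicate 1 was the higher array, and the difference of 0.13 became -0.15 without WT replicate 2.

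The promoters of the members show which of them carry the letters of the response elements named above. RefSeq promoter windows of build GRCm38.p6, from 250 bases before to 50 after the start, were at hand for 29 members, 7 of them with more than 1 start. Msra, Sod3, Hmox1, Gsr and Gclc had no entry. The core of the antioxidant response element, TGACNNNGC, was found on either strand in 7 of the 29 members (24.1%), against 15.2% of the 15614 tested genes with a window. ACGTG or GCGTG, the core bound by HIF-1, was found in 18 members (62.1%), against 55.3% of those genes. A gene counted when any of its windows held a match, and 2637 of the 15614 genes had more than 1 start, beside 7 of the 29 members. A match is a description of letters, and neither share was tested. Sites in 6 of the 7 members are shown to compare their cores, each on the gene's strand with the core in capitals. Capitals that start with GC are the core read on the opposite strand, and that of Sod1 overlaps a GCGTG match.
Nfe2l2, chr2:75704886-75704912, minus strand: cagcccaccTGACTCCGCcatgccccg
Srxn1, chr2:152105543-152105569, plus strand: cagtgggcaGCTAGGTCAgagtgagac
Gclm, chr3:122245414-122245440, plus strand: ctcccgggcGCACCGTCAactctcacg
Mgst1, chr6:138140462-138140488, plus strand: cggggcttgGCACGGTCAggaggcggg
Txnrd1, chr10:82859105-82859131, plus strand: tggatttttGCTTTGTCAttctgacac
Sod1, chr16:90220697-90220723, plus strand: ccaaggtggGCGTGGTCAgactcaggc
The differences of these 6 genes between genotypes were 0.023 for Nfe2l2, -0.025 for Srxn1, -0.0066 for Gclm, -0.22 for Mgst1, -0.072 for Txnrd1 and 0.13 for Sod1, and 0 of them passed the test.

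In glutathione synthesis the catalytic subunit had the largest difference and its partner almost none. Gclc, the catalytic subunit of glutamate-cysteine ligase, which makes the first bond of glutathione, read 11.33 and 10.82 on the Hif1a-/- arrays, against 10.60 and 10.83 on the WT arrays. Hif1a-/- replicate 1 was the high array, and Hif1a-/- replicate 2 lay just below WT replicate 2. The difference was 0.36 ± 0.20 (SE), a 1.28-fold higher mean in Hif1a-/- cells with an unadjusted limma p of 0.115. Without Hif1a-/- replicate 1 it was 0.10. Gclm, the modifier subunit of the same enzyme, read 12.15 and 12.05 on the Hif1a-/- arrays, against 12.10 and 12.11 on the WT arrays, and differed by -0.0066. All 4 arrays of Gclm lay close together. Gss, the synthetase of the second step, read 9.48 and 9.31 on the Hif1a-/- arrays, against 9.15 and 9.34 on the WT arrays, and differed by 0.15.

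Among the recycling genes, Gsr and Glrx varied mainly between the WT arrays. Gsr, the reductase that restores glutathione with NADPH, read 12.48 and 12.27 on the Hif1a-/- arrays, against 12.77 and 12.26 on the WT arrays. Glrx, a cytosolic glutaredoxin that removes glutathione from proteins, read 11.70 and 11.44 on the Hif1a-/- arrays, against 12.11 and 11.26 on the WT arrays. In both genes WT replicate 1 was the highest array and WT replicate 2 the lowest. Gsr differed by -0.14 between genotypes, by 0.11 without WT replicate 1 and by -0.39 without WT replicate 2. Glrx differed by -0.12, by 0.31 without WT replicate 1 and by -0.54 without WT replicate 2. Glrx2, the mitochondrial glutaredoxin, read 11.25 and 11.22 on the Hif1a-/- arrays, against 11.08 and 11.21 on the WT arrays. Its groups did not overlap, but the difference was 0.094 ± 0.12 (SE), and 0.029 without WT replicate 1.

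The 4 glutathione peroxidases, which reduce peroxides with glutathione, differed by -0.10 to 0.15. Gpx1, the general cytosolic form, read 13.10 and 13.16 on the Hif1a-/- arrays, against 13.15 and 13.32 on the WT arrays. Gpx3, a secreted form, read 9.91 and 10.10 on the Hif1a-/- arrays, against 9.83 and 9.88 on the WT arrays, without overlap. Its difference was 0.15 ± 0.13 (SE), and 0.059 without Hif1a-/- replicate 2. Gpx4, which reduces lipid peroxides and protects cells from ferroptosis, read 11.09 and 11.08 on the Hif1a-/- arrays, against 11.14 and 10.86 on the WT arrays. A second Gpx4 probe set differed by 0.059, beside 0.086 for the first. The array annotation does not say whether either also matches near-identical copies elsewhere in the genome. Gpx7, a form of the endoplasmic reticulum, differed by 0.018, with groups that overlapped.

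Glutathione S-transferases couple glutathione to electrophiles, and 4 of the 5 measured members had a higher mean in Hif1a-/- cells, all with overlapping groups. The exception, Mgst1, a membrane-bound transferase with peroxidase activity, read 9.88 and 9.55 on the Hif1a-/- arrays, against 10.63 and 9.24 on the WT arrays. The WT arrays lay on either side of both Hif1a-/- arrays. The difference of -0.22 became 0.47 without WT replicate 1 and -0.91 without WT replicate 2. Gstp1, a cytosolic transferase that also binds the stress kinase JNK, read 12.53 and 12.25 on the Hif1a-/- arrays, against 12.00 and 12.26 on the WT arrays. Hif1a-/- replicate 1 was high and WT replicate 1 low, and the remaining arrays nearly met. Its difference was 0.26 ± 0.16 (SE), with an unadjusted limma p of 0.144. Without Hif1a-/- replicate 1 it was 0.13, and without WT replicate 1 0.13. Gstm1, a cytosolic transferase, read 12.28 and 12.37 on the Hif1a-/- arrays, against 11.91 and 12.51 on the WT arrays. Gsto1, an omega transferase that reduces rather than conjugates, read 10.99 and 11.01 on the Hif1a-/- arrays, against 10.51 and 11.08 on the WT arrays. For Gstm1 and Gsto1 WT replicate 1 was the lowest array and WT replicate 2 the highest, and without WT replicate 1 the differences of 0.12 and 0.20 became -0.18 and -0.083. Mgst2, a relative of Mgst1, differed by 0.064. Over the 15 measured genes of glutathione synthesis, peroxidases and transferases, the median difference was 0.086, with 10 higher and 5 lower means.

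The thioredoxin genes showed no common direction. Txn1, the cytosolic thioredoxin, read 13.95 and 13.99 on the Hif1a-/- arrays, against 14.11 and 13.97 on the WT arrays, and differed by -0.069. Its reductase gene Txnrd1, which encodes a selenoprotein that uses NADPH, read 10.58 and 10.44 on the Hif1a-/- arrays, against 10.49 and 10.67 on the WT arrays, and differed by -0.072. The mitochondrial pair had means that were higher in Hif1a-/- cells, by 0.10 for the thioredoxin Txn2 and 0.11 for its reductase Txnrd2. Both turned without WT replicate 1, to -0.13 for Txn2 and -0.020 for Txnrd2. Msra, which repairs oxidised methionine with thioredoxin, differed by -0.10, and by 0.17 without WT replicate 1.

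Among the peroxiredoxins, which reduce hydrogen peroxide with thioredoxin, Prdx2 and Prdx1 differed in opposite directions. Prdx2, a cytosolic form abundant in red cells, read 12.42 and 12.41 on the Hif1a-/- arrays, against 12.09 and 12.25 on the WT arrays. The groups did not overlap. Its mean was 12.41 ± 0.0073 in Hif1a-/- cells and 12.17 ± 0.11 in WT cells (SD, n = 2 each), a 1.18-fold difference, or 0.24 ± 0.13 (SE) on the log2 scale. A second Prdx2 probe set read 10.73 and 10.62 on the Hif1a-/- arrays, against 10.32 and 10.58 on the WT arrays, and differed by 0.23. With WT replicate 1 left out the first gave 0.16, and with WT replicate 2 left out 0.32. Prdx1, the other main cytosolic form and a known NRF2 output, read 11.68 and 11.82 on the Hif1a-/- arrays, against 11.80 and 11.99 on the WT arrays, with overlapping groups. It differed by -0.15 ± 0.14 (SE) and its second probe set by -0.13. With WT replicate 2 left out the first gave -0.049. Probe set numbers of the other members run in chromosome order. By number the first Prdx1 set lies among those of chromosome 16, although Prdx1 is on chromosome 4. The first Prdx2 set lies between those of chromosomes 1 and 10, and the second among those of chromosome 8, where Prdx2 is. The array annotation does not say whether the probe sets of these genes also match near-identical copies elsewhere in the genome. The levels printed for the first sets may therefore not be those of the genes themselves, which was not tested.

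Among members with a promoter window, Prdx2 and Prdx1 had the smallest unadjusted limma p for a higher and a lower mean. Their promoters are shown whole, from RefSeq build GRCm38.p6. That of Prdx1 has 1 match of TGACNNNGC, and that of Prdx2 has 3 of GCGTG, counted on both strands and given in capitals (CACGC is GCGTG on the opposite strand). The part of these letters in the differences was not tested.
Prdx2, chr8:84969372-84969671, plus strand: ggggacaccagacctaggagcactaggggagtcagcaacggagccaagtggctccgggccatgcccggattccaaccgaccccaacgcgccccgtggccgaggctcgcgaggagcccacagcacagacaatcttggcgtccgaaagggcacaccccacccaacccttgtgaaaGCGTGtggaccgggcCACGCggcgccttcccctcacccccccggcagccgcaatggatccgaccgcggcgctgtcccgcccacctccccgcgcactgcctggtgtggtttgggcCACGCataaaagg
Prdx1, chr4:116685349-116685648, plus strand: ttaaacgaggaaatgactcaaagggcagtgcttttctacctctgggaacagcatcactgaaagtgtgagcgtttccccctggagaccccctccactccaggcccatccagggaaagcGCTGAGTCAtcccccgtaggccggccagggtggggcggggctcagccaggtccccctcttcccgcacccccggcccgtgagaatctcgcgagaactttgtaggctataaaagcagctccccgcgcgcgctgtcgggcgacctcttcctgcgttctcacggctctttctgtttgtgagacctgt

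The other measured members of the family differed less. Prdx3, the mitochondrial peroxiredoxin, read 11.27 and 11.31 on the Hif1a-/- arrays, against 11.13 and 11.35 on the WT arrays, and differed by 0.048. Prdx4, the form of the endoplasmic reticulum, read 9.06 and 8.71 on the Hif1a-/- arrays, against 8.76 and 8.95 on the WT arrays, and differed by 0.031. Srxn1, which reactivates over-oxidised peroxiredoxins, read 9.20 and 9.20 on the Hif1a-/- arrays, against 9.38 and 9.07 on the WT arrays. WT replicate 1 lay above both Hif1a-/- arrays of Srxn1 and WT replicate 2 below, and the difference was -0.025. Over the 10 measured thioredoxin and peroxiredoxin genes the median difference was 0.0031, with 5 higher and 5 lower means.

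The superoxide branch had the highest median difference of the branches, 0.17 over 4 genes, and this rested on WT replicate 1. Sod2, the manganese dismutase of mitochondria, read 11.75 and 11.68 on the Hif1a-/- arrays, against 11.21 and 11.79 on the WT arrays. Cat, the peroxisomal catalase, read 12.14 and 12.04 on the Hif1a-/- arrays, against 11.58 and 12.10 on the WT arrays. In both genes WT replicate 1 was the low array and WT replicate 2 lay with the Hif1a-/- arrays. The differences were 0.22 ± 0.20 (SE) for Sod2 and 0.25 ± 0.19 (SE) for Cat, and they became -0.073 and -0.010 without WT replicate 1. Sod1, the copper and zinc dismutase of the cytosol, read 13.07 and 12.86 on the Hif1a-/- arrays, against 12.91 and 12.77 on the WT arrays, and differed by 0.13, and by 0.019 without Hif1a-/- replicate 1. Sod3, the extracellular dismutase, read 7.19 and 7.45 on the Hif1a-/- arrays, against 7.36 and 7.32 on the WT arrays, and differed by -0.020. The median of the branch was -0.0055 without WT replicate 1 and 0.28 without WT replicate 2.

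The spread within WT exceeded the genotype difference for most members. For 29 of the 34 (85.3%) the WT arrays differed by more than the genotype means, as they did for 75.5% of all genes, where a difference between single arrays carries more error than one between means of 2 arrays. The median size of the difference was 0.11 between genotypes, 0.14 between the Hif1a-/- arrays and 0.23 between the WT arrays, beside 0.086, 0.11 and 0.19 over all genes. WT replicate 1 was the array farthest from the median of the other three in 17 of the 34 members, against 34.4% of all genes. WT replicate 2 was so in 6 members (17.6%), against 34.5% of all genes. These shares were not tested.

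**Figure D3:**
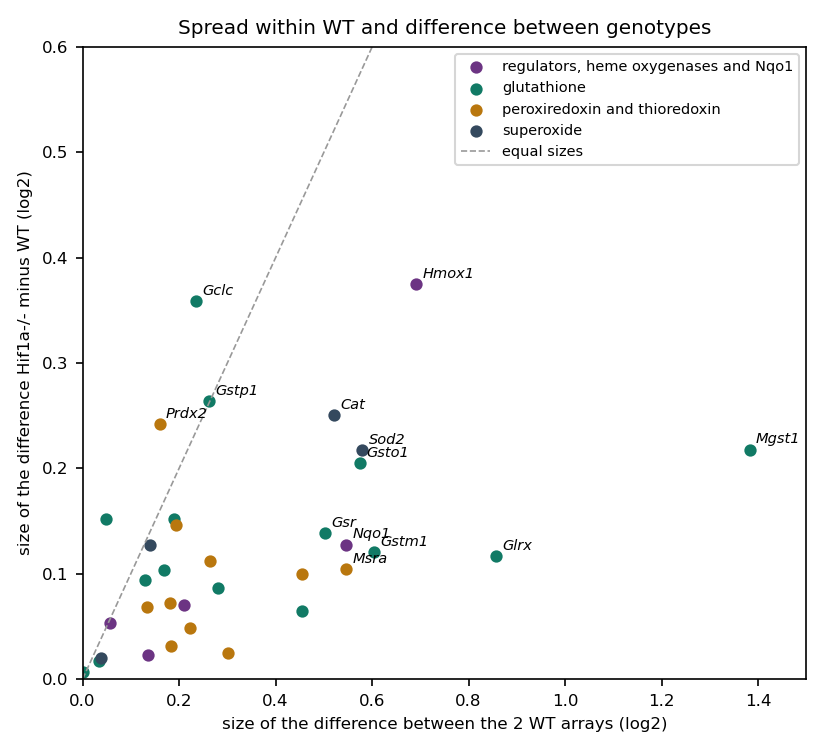
Size of the difference between genotypes (vertical axis, log2) against the size of the difference between the 2 WT arrays (horizontal axis, log2) for the 34 genes, coloured by branch. Of these genes 29 lie to the right of the dashed line of equal sizes, and Prdx2, Gclc and Gpx3 are among those to its left.

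A log2 size of 0.5, chosen after the values were seen, separated the members with the largest spread within WT. Of the 34, 10 (29.4%) differed by more than that between the WT arrays, against 11.6% of all genes, and 0 did so between genotypes, against 0.893%. Higher on WT replicate 1 were 6 members, Mgst1, Glrx, Hmox1, Nqo1, Msra and Gsr, by -1.38 (WT replicate 2 minus 1) for Mgst1 to -0.50 for Gsr. Lower on WT replicate 1 were 4 members, Gstm1, Sod2, Gsto1 and Cat, by 0.60 for Gstm1 to 0.52 for Cat. Over all genes 666 were higher and 1651 lower on WT replicate 1 by more than that size. Over the same arrays, again WT replicate 2 minus 1, Ly6g differed by -2.46, Itgam, an integrin of myeloid cells, by -1.61, Kit by 0.76 and Cd34 by 1.98. Granulocyte and monocyte markers ran both ways: 6 of 11 were higher on WT replicate 1, among them Ltf (-2.05) and Lyz2 (-1.90), and 5 were lower, Mpo (0.70), Prtn3 (0.67), Csf1r (0.36), Elane (0.34) and Ctsg (0.32). Ly6g and Itgam belong to 6 measured lineage markers that a Lin- sort is meant to remove. All 6 were higher on WT replicate 1, with Klrb1c (-0.040) differing least. The log2 of their summed linear values was 12.6 and 12.5 on the Hif1a-/- arrays, against 13.7 and 11.8 on the WT arrays. Higher there too were 8 of 9 lymphoid and 10 of 11 macrophage and stromal markers. So were 5 of 7 erythroid and 5 of 10 mast cell and basophil markers. The part of cell composition in the spread of the members was not tested.

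Leaving out WT replicate 2, which leaves 1 WT array assumed to vary like the Hif1a-/- arrays, limma called 6 members at an adjusted p under 0.05, against 7.23% of all genes. Lower in Hif1a-/- cells were Mgst1 (-0.91), Hmox1 (-0.72) and Glrx (-0.54), and higher were Cat (0.51), Sod2 (0.51) and Gsto1 (0.49). Without WT replicate 1, 0 members were called, against 1.75% of all genes. The same differences were then 0.47 for Mgst1, -0.030 for Hmox1, 0.31 for Glrx, -0.010 for Cat, -0.073 for Sod2 and -0.083 for Gsto1. Of these 6, Hmox1 kept its sign. Over the 4 fits that each left out 1 array, 12 of 34 members (35.3%) kept the sign of their difference, as did 37.5% of all genes. They were Keap1, Gclc, Gss, Glrx2, Gpx3, Gstp1, Prdx2 and Sod1 with higher means, and Hmox1, Gpx1, Txn1 and Prdx1 with lower means, in Hif1a-/- cells. Some of these came close to 0, with 0.019 for Sod1 and 0.020 for Keap1 without Hif1a-/- replicate 1, -0.0021 for Txn1 and 0.058 for Gss without WT replicate 1, and -0.019 for Gpx1 without WT replicate 2.

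**Figure D4:**
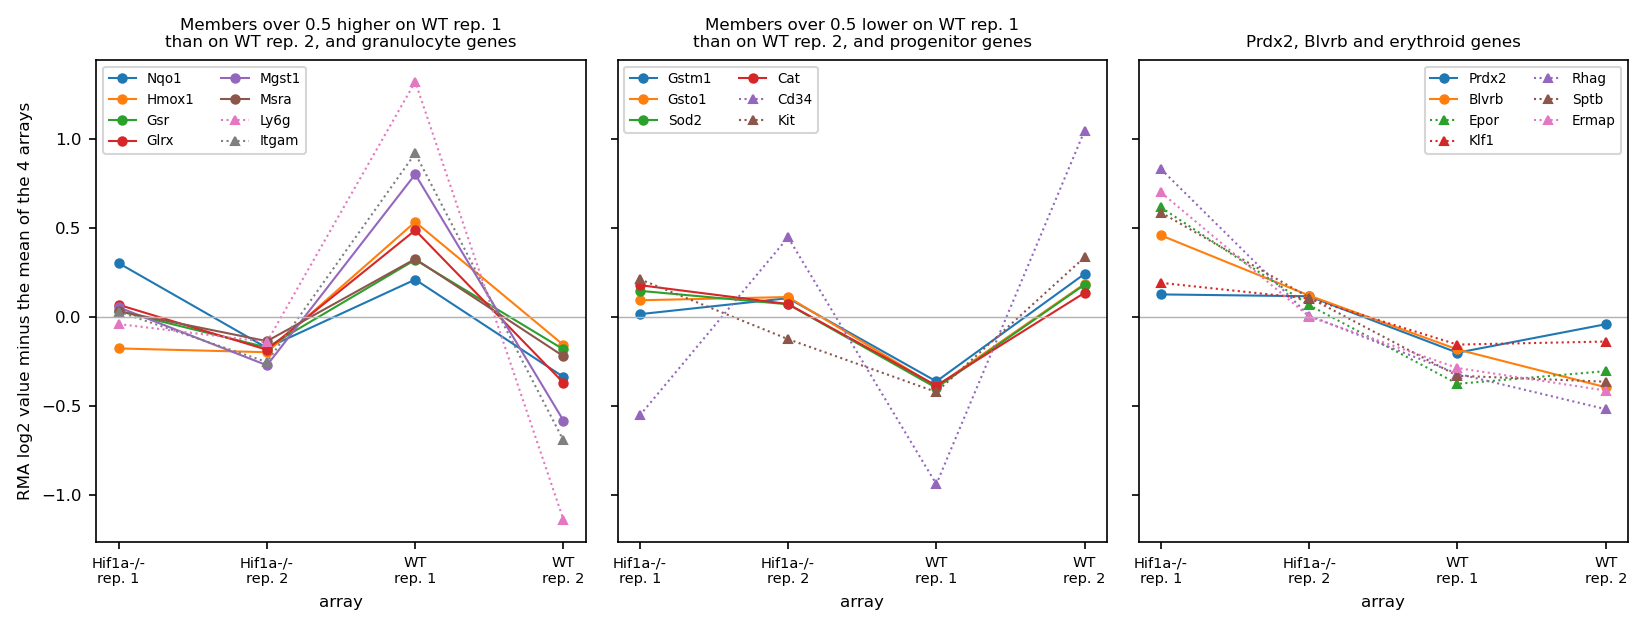
RMA log2 value minus the gene's mean over the 4 arrays, with the Hif1a-/- arrays left and the WT arrays right in each panel, and lines that only join the points of a gene. The left and middle panels show antioxidant genes over 0.5 higher or lower, respectively, on WT replicate 1 than on WT replicate 2. Triangles are picked markers, Ly6g and Itgam on the left and Cd34 and Kit in the middle. Granulocyte markers that ran the other way, such as Mpo and Elane, are not drawn. The right panel shows Prdx2 and Blvrb with erythroid markers picked because their Hif1a-/- arrays lie above the WT arrays. Alas2 and Slc4a1, whose groups overlapped, are not drawn.

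Most of the measured markers of red cell precursors had the same order of groups as Prdx2. Of 7 measured erythroid markers, 5 (Epor, Klf1, Rhag, Sptb and Ermap) were higher in Hif1a-/- cells without overlap of the groups (71.4%, against 15.7% of all genes), and all 7 had a higher mean in Hif1a-/- cells, as did 61.4% of all genes. The log2 of their summed linear values was 13.66 and 13.16 on the Hif1a-/- arrays, against 12.87 and 12.73 on the WT arrays. The groups of Alas2 and Slc4a1 overlapped, with differences of 0.13 and 0.12. Epor, the erythropoietin receptor, differed by 0.68, and by 0.41 without Hif1a-/- replicate 1. Of the 7 markers, 0 passed an adjusted limma p of 0.05 and 5 had an unadjusted p under 0.05. Other members that red cells hold in quantity differed by -0.10 (Gpx1), 0.13 (Sod1) and 0.25 (Cat), each with overlapping groups. Sod1 differed by 0.019 without Hif1a-/- replicate 1, and Cat by -0.010 without WT replicate 1. Blvrb, a biliverdin and flavin reductase also abundant in red cells, read 11.92 and 11.58 on the Hif1a-/- arrays, against 11.28 and 11.07 on the WT arrays, without overlap. Its difference was 0.58 ± 0.16 (SE), with an unadjusted limma p of 0.0107. Without Hif1a-/- replicate 1 it was 0.41. The part of erythroid cells in the values of Prdx2 and Blvrb was not tested.

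In genes around the pathway, 0 of 85 measured genes in 6 lists passed an adjusted p of 0.05, and 2 had an unadjusted limma p under 0.05, Blvrb and Anpep. Of 17 NRF2 targets outside the members, 7 had a higher and 10 a lower mean in Hif1a-/- cells, with a median difference of -0.018. Slc7a11, which imports cystine for glutathione, read 9.59 and 8.62 on the Hif1a-/- arrays, against 8.74 and 8.76 on the WT arrays. Hif1a-/- replicate 1 alone was high, as it was for Gclc, and the difference of 0.35 was -0.13 without it. Me1, the cytosolic malic enzyme that makes NADPH, differed by -0.25, with overlapping groups, and by -0.52 without WT replicate 1 and 0.014 without WT replicate 2. The 10 partners and regulators of NRF2 had a median difference of -0.040. The smallest p among them were those of Bach2 (-0.18), a repressor that competes at the response element, Sqstm1 (-0.12), an autophagy adaptor that binds KEAP1, and Cul3 (-0.095), the ligase scaffold of KEAP1. Sqstm1 differed by -0.014 without WT replicate 1, and Bach2 by -0.12 without WT replicate 2.

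Of 19 other glutathione S-transferases and peroxidases, 13 had a higher and 6 a lower mean in Hif1a-/- cells, with a median difference of 0.048. Without overlap, 5 lay above (26.3%, against 15.7% of all genes) and 1 below (5.26%, against 9.05%). Of those above, Gstm6, Gpx6 and Gsta3 were dim, at percentiles 10.2, 20.3 and 20.8 of mean level. Dim genes lay above more often, as the share was 12.3% of genes at or above the 25th percentile. Mgst3, a microsomal transferase, read 9.02 and 9.01 on the Hif1a-/- arrays, against 8.70 and 8.78 on the WT arrays. It had the smallest unadjusted limma p of its list, 0.0589, with a difference of 0.28 ± 0.12 (SE). Gpx6 and Gpx2 differed by 0.28 and 0.16, and Gpx6 by 0.18 without Hif1a-/- replicate 2. Among 13 genes of glutathione turnover and cysteine supply, with a median of 0.013, Anpep, an aminopeptidase of the cell surface that also marks myeloid cells, read 10.04 and 10.67 on the Hif1a-/- arrays, against 10.85 and 11.01 on the WT arrays. Its difference was -0.57 ± 0.22 (SE), with an unadjusted limma p of 0.0359, and -0.26 without Hif1a-/- replicate 1. Cth, which makes cysteine from cystathionine, differed by 0.32 and by 0.13 without Hif1a-/- replicate 1, and Ggt6, of the gamma-glutamyltransferase family, by 0.20 and by 0.045 without WT replicate 2.

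The 15 partners of thioredoxin and glutaredoxin had a median difference of -0.0081. Txnip, the thioredoxin-binding inhibitor, differed by -0.24, Glrx5, a mitochondrial glutaredoxin of iron-sulfur cluster assembly, by 0.27, and Sesn3, a sestrin, by -0.15. Each moved with 1 array left out: Txnip differed by -0.091 without Hif1a-/- replicate 2 and -0.13 without WT replicate 1, Glrx5 by 0.15 without Hif1a-/- replicate 1 and 0.12 without WT replicate 1, and Sesn3 by -0.027 without WT replicate 2. Among 11 measured sources of oxidants, with a median of 0.029, Mpo, the myeloperoxidase of granulocytes, read 13.52 and 13.59 on the Hif1a-/- arrays, against 12.97 and 13.67 on the WT arrays. WT replicate 1 was low for Mpo, unlike Ly6g, and the difference of 0.23 became -0.12 without WT replicate 1 and 0.58 without WT replicate 2. Ncf4, a cytosolic subunit of the phagocyte NADPH oxidase, differed by -0.22, by 0.13 without WT replicate 1 and by -0.57 without WT replicate 2. The dual oxidase Duox2 differed by 0.19, and by 0.092 without WT replicate 2.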

How the data were processed

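Expression was read from 4 Affymetrix whole-transcript arrays, 2 per genotype as given in the sample titles. The authors deposited log2 values of 35556 probe sets, made with Affymetrix Expression Console 1.1 and RMA per the submitters' processing notes (other settings: not given in the sources used here). RMA normalizes arrays by quantiles, which removes changes of total RNA, and understates differences of dim genes. All columns were used.

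Probe sets with 1 symbol (21789; several symbols, 1621; unnamed here, 12146) were kept, with the highest-mean set per gene, which left 19938 genes. Genes were fitted with limma 3.58.1 (R 4.3.3) on genotype alone, with 2 residual and 4.456 prior degrees of freedom, and Benjamini-Hochberg adjustment over all genes. A check on simulated data gave both genotypes the same spread. It does not cover the wider spread of the WT arrays here (median 0.19, against 0.11 between the Hif1a-/- arrays, over all genes). The smallest two-sided p of an exact permutation test would be 0.333 here. Precision is limited by the number of arrays, with a median SE of a difference of 0.14. The replicate numbers did not pair the samples by label or data. Motifs were searched with Python 3.11.15 in RefSeq windows. Alternatives were a filter at the 25th percentile, centred medians, a second quantile normalization, probe set means, a variance trend, a replicate block and each array left out. Members, lists and tests were chosen with earlier results of these data known. The text names every measured member, 3 genes with the smallest p of each related list, Hif1a, and markers of cell types. Among the markers, those singled out were picked after their values were seen.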

Additional observations from a re-analysis of the deposited data

How the results depend on the processing

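The count of members past an adjusted p of 0.05 was 0 in the filtered, centred, renormalized, averaged, trend and block fits, and 0 to 6 with 1 array left out. At an unadjusted p under 0.05 it was 1 (Prdx2) after a second quantile normalization, where 2.08% of all genes passed, and 0 to 13 with 1 array left out, the 13 without WT replicate 2, where 18.2% of all genes passed. Members with both Hif1a-/- arrays above numbered 3, against 5 after a second quantile normalization (14% of all genes). With 1 array left out they numbered 13 without WT replicate 1 (43% of all genes) and 14 without WT replicate 2 (42.5%). They numbered 5 without Hif1a-/- replicate 1 (31.4%) and 14 without Hif1a-/- replicate 2 (30.4%). Those below numbered 1, against 4 with centred medians (12.3% of all genes) and 4 to 10 with 1 array left out (19.5% to 32.3%), where 3 arrays overlap less often by construction. The median member difference ranged from 0.013 to 0.067 over the fits with 1 array left out. Branch medians ranged from -0.044 to 0.027 for regulators, heme oxygenases and Nqo1, from 0.034 to 0.11 for glutathione, from -0.041 to 0.071 for peroxiredoxins and thioredoxins and from -0.0055 to 0.28 for the superoxide branch. With centred medians, which shift all genes by -0.026, they were -0.0031 for regulators, heme oxygenases and Nqo1 and -0.023 for peroxiredoxins and thioredoxins, which were at -0.010 after a second quantile normalization. Single genes turned to -0.0031 (Nfe2l2) and -0.0084 (Gpx7) with centred medians and to 0.011 (Gclm) and -0.026 (Gpx7) after a second quantile normalization. With 1 array left out, 22 members changed sign at least once: Nfe2l2 (-0.044 to 0.090), Nqo1 (-0.15 to 0.40), Hmox2 (-0.18 to 0.037), Gclm (-0.055 to 0.042), Gsr (-0.39 to 0.11), Glrx (-0.54 to 0.31), Gpx4 (-0.054 to 0.23), Gpx7 (-0.072 to 0.11), Mgst1 (-0.91 to 0.47), Mgst2 (-0.17 to 0.30), Gstm1 (-0.18 to 0.42), Gsto1 (-0.083 to 0.49), Txn2 (-0.13 to 0.33), Txnrd1 (-0.16 to 0.018), Txnrd2 (-0.020 to 0.24), Msra (-0.38 to 0.17), Prdx3 (-0.063 to 0.16), Prdx4 (-0.14 to 0.20), Srxn1 (-0.18 to 0.13), Sod2 (-0.073 to 0.51), Sod3 (-0.15 to 0.11), Cat (-0.010 to 0.51). The labels tie no replicate numbers together, and deviations of Hif1a-/- and WT replicate 1 from their genotype means correlated at -0.0072 over genes, so the replicate block is a check on numbers only: it left the median member difference at 0.051 and the members called at 0, while 47 of all genes were called.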
